A study of Mus musculus with 24 samples.

Results

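Collagen chains were the 44 protein-coding genes whose symbol is Col, a number, the letter a and a number, chosen by name alone from 55487 genes (21974 of them protein-coding) in the expression tables. They fell into 11 fibrillar chains, 6 type IV chains of the basement membrane, 2 multiplexins, 1 anchoring fibril chain, 6 type VI chains, 9 fibril-associated chains (FACIT), 3 short chain network chains, 4 transmembrane chains and 2 others. RNA was sequenced from the colon and from colorectal tumours of C57BL/6 mice, either wild type (WT) or carrying an Axin1 knockout specific to intestinal epithelium (KO). The Axin1 protein holds together the machinery that targets beta-catenin, the carrier of the Wnt signal, for breakdown. The colon groups were untreated mice and mice killed at day 7 or day 13 under dextran sulfate sodium (DSS), a sulfated sugar polymer that injures the gut lining and brings on colitis. The tumour groups were mice given the carcinogen azoxymethane (AOM) together with DSS. Each genotype and condition had 3 libraries, stated to be biological replicates, so there were 18 colon and 6 tumour libraries in 8 groups. The gene was removed only in the epithelium, while each library held the whole tissue. The sources used here give neither the driver of the deletion nor the age and sex of the mice.

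Collagens are the main structural proteins of connective tissue, and each molecule is a triple helix of 3 chains wound around one another. Fibrillar chains (types I, II, III, V, XI, XXIV and XXVII) build the rope-like fibrils of the submucosa, type IV chains build the sheet of the basement membrane under epithelium, vessels and muscle cells, and type VI chains build beaded filaments that link cells to the fibrils. FACIT chains sit on the surface of fibrils, multiplexins are proteoglycan collagens of the basement membrane zone, type VII anchors the basement membrane to the fibrils below, and transmembrane collagens span the cell membrane. In gut, fibroblasts, smooth muscle cells and pericytes make most of these chains, and endothelium and epithelium make some of the basement membrane chains. The samples were bulk tissue, so fewer cells of a type and less RNA per cell cannot be told apart in any result here.

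Each library held 15.7 to 28.1 M expected counts (M, mega; median 23.6 M). Axin1 in KO was 29.0% to 33.2% of the WT level in the 4 conditions, and no KO library overlapped the WT libraries of its condition (exact two-sided permutation test, p = 0.1 each, the smallest that 3 against 3 libraries allow). 4 colon libraries stood apart from the others of their group. WT day 7 replicate 2 held the most smooth muscle RNA, with Myh11, the smooth muscle myosin heavy chain, at 3411 CPM (counts scaled to a common library total with TMM factors) against 655 and 1335 CPM in the other WT day 7 libraries. WT day 13 replicate 3 and KO day 13 replicate 1 held RNA of squamous epithelium, with the keratin Krt5 at 1642 and 283 CPM against at most 0.273 CPM in the other day 13 libraries. KO untreated replicate 3 had the interferon-induced gene Irf7 at 597 CPM against 73.5 and 122 CPM in the other KO untreated libraries. The RNA Xist, made in female cells, was above 100 CPM in 1 of 3 WT and 0 of 3 KO untreated libraries, in 3 WT and 2 KO libraries at day 7, in 0 WT and 3 KO libraries at day 13, and in 1 library of each tumour group, so that sex and genotype cannot be told apart at day 13. Nor can sex and condition be told apart between untreated and day 13 KO colon. The other day 7 and day 13 comparisons with untreated colon were also unbalanced in Xist. Counts of called chains without these libraries are given where they differed by more than 1.5 times.

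The 44 chains covered a wide range of levels. Levels between genes were compared in TPM, the share of transcripts after correction for gene length. Over the 24 libraries 14 chains had a mean of at least 10 TPM and 28 at least 1 TPM, 16 lay under 1 TPM and 5 under 0.1 TPM, and 35 had a count in every library. Col3a1, the single chain of type III collagen, was the most abundant with a mean of 234.6 TPM and a range of 42.9 to 706 TPM. Col4a1 followed with 75.9 TPM, then Col1a2 with 65.3 TPM, Col1a1 with 50.6 TPM, Col6a1 with 42.7 TPM and Col4a2 with 40.3 TPM. The 10 most abundant chains made up 83.3% of the summed collagen TPM. Chains best known from cartilage (Col2a1, Col9a1, Col10a1) and Col19a1 were near 0 in untreated colon, as the map of mean levels shows.

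**Figure D1:**
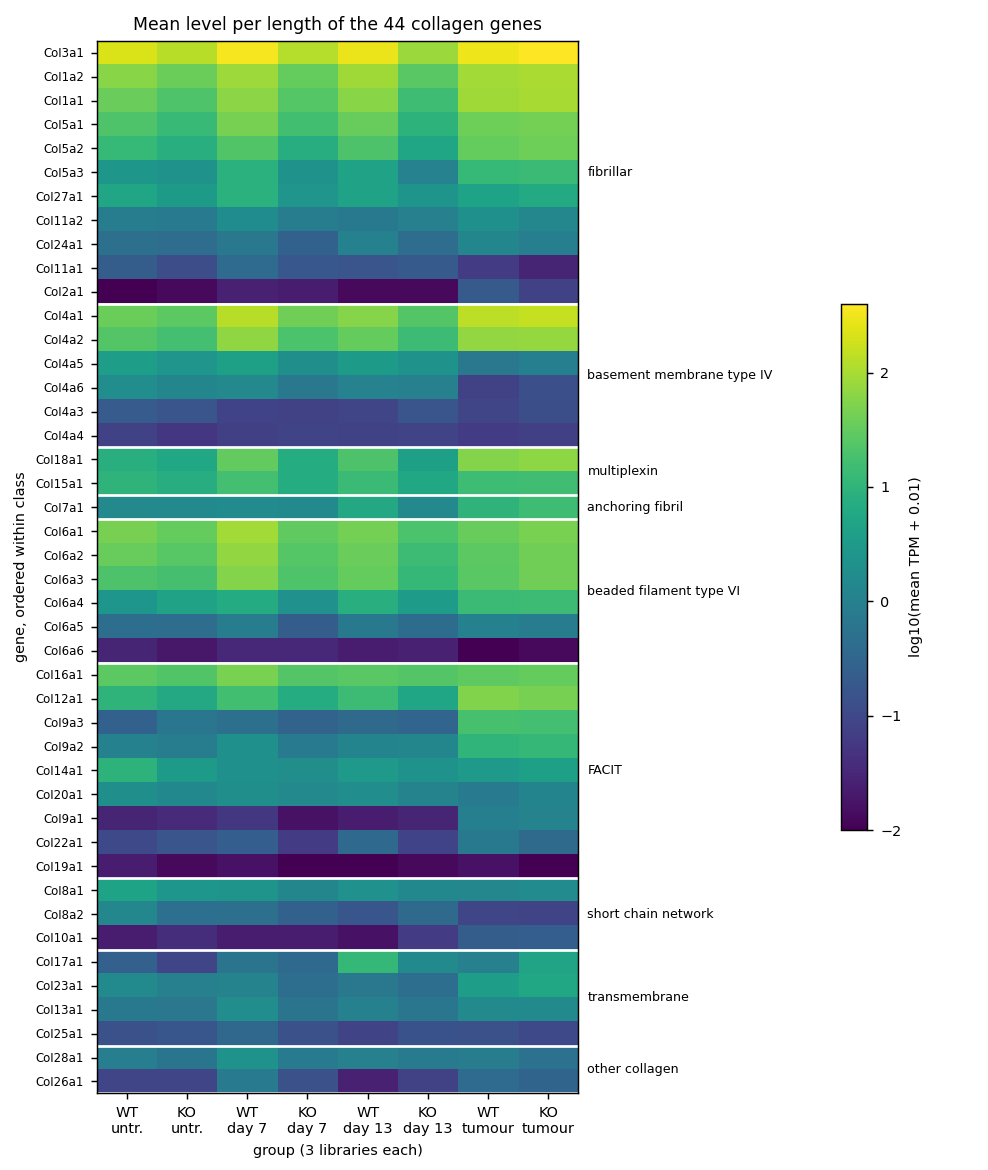
Mean level of each of the 44 collagen genes (rows, ordered by abundance within their class) in the 8 groups of 3 libraries (columns), as log10 of mean TPM plus 0.01. Col3a1 (mean 234.6 TPM over all libraries) and Col4a1 (75.9 TPM) are bright in every column, and Col4a5 and Col4a6 darken while Col9a1, Col9a2 and Col9a3 brighten in the tumour columns.

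The summed TPM of all 44 chains was 617, 698 and 511 in the untreated WT libraries and 363, 445 and 375 in the untreated KO libraries, and these ranges did not overlap. At day 7 it was 614, 2248 and 537 in WT and 371, 474 and 364 in KO. At day 13 it was 673, 489 and 1319 in WT and 217, 339 and 298 in KO. The KO libraries lay under every WT library of their own condition in all 3 colon conditions, also when the high WT day 7 replicate 2 and WT day 13 replicate 3 are set aside. In tumours the genotypes overlapped, with sums of 960, 1374 and 932 in WT and 1506, 1220 and 1147 in KO. A sum of TPM is dominated by Col3a1, and no test was made on sums over the members.

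**Figure D2:**
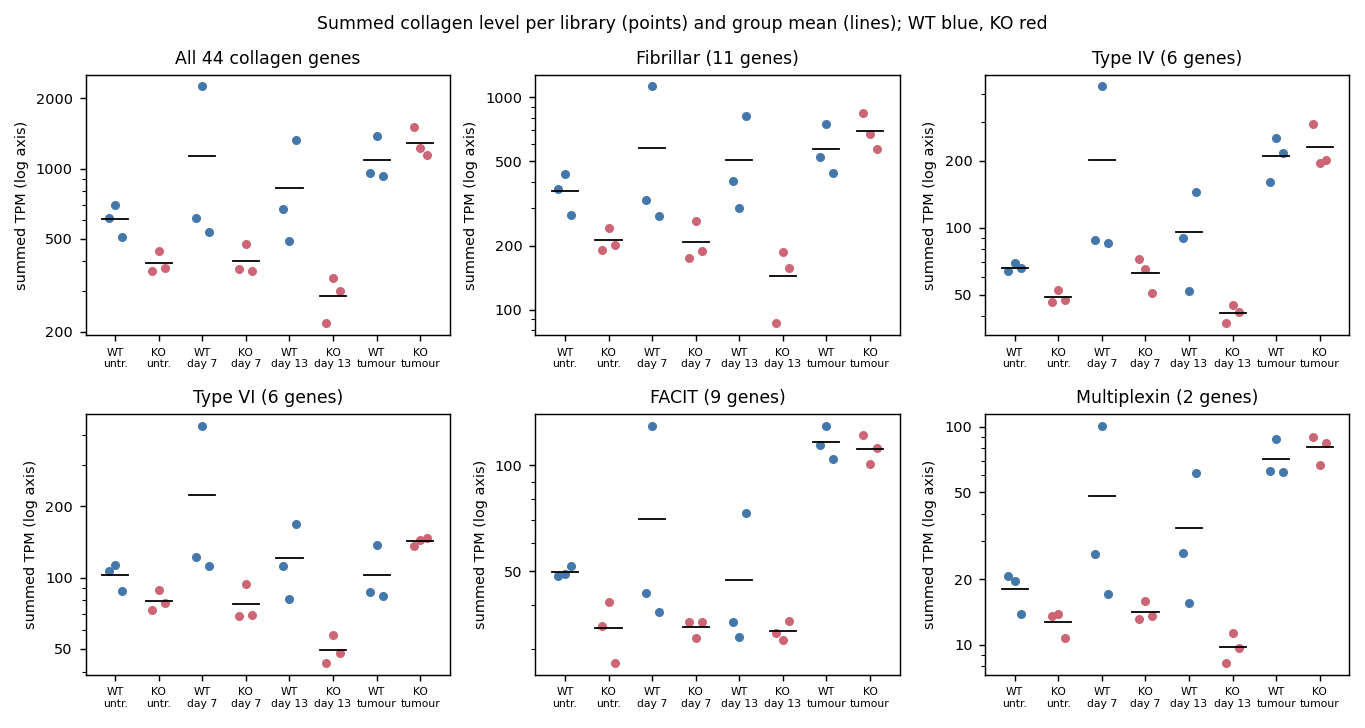
Summed TPM (log axis) of all collagen genes and of 5 classes in each library (points; lines are group means; WT blue, KO red). In the 3 colon conditions the KO libraries of the all-gene panel (217 to 474 TPM) lie under the WT libraries of the same condition (489 to 2248 TPM), and in tumours both genotypes lie between 932 and 1506 TPM.

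Type IV and multiplexin chains held a larger share of the collagen RNA in tumours than in untreated colon, and type VI chains a smaller one. Fibrillar chains held 58.9% ± 4.03 of the summed TPM in untreated WT colon, 53.6% ± 1.17 in untreated KO colon, 52.0% ± 4.14 in WT tumours and 53.6% ± 3.25 in KO tumours (SD, n = 3 each). The type IV share was 11.02% ± 1.57 and 12.4% ± 0.484 in untreated WT and KO colon and 19.5% ± 3.34 and 17.8% ± 1.69 in WT and KO tumours. Type VI went the other way, from 16.9% ± 0.608 and 20.2% ± 0.4997 in untreated WT and KO colon to 9.34% ± 0.539 and 11.2% ± 1.97 in WT and KO tumours. For both classes the tumour libraries of a genotype did not overlap its untreated libraries. The multiplexin share also stood higher in tumours, at 6.54% ± 0.157 in WT and 6.27% ± 0.958 in KO against 2.96% ± 0.340 and 3.24% ± 0.434 in untreated colon.

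Ratios between chains that join in one molecule differed between conditions, also within colon. Type I collagen is mostly made of a pair of Col1a1 chains with a Col1a2 chain. Per length, the ratio of Col1a1 to Col1a2 was 0.578 ± 0.0104 in untreated WT and 0.586 ± 0.0232 in untreated KO colon, 0.755 ± 0.0714 and 0.754 ± 0.0768 at day 7, 0.690 ± 0.0447 and 0.541 ± 0.0294 at day 13, and 0.958 ± 0.124 and 0.959 ± 0.0956 in tumours (WT and KO, SD, n = 3). The ratio was thus near equal between genotypes in every condition but day 13. Col4a1 to Col4a2, the partners of the main type IV molecule, was at 1.62 and 1.63 in untreated WT and KO colon, 1.90 and 1.99 at day 7, 1.82 and 1.65 at day 13, and 1.92 and 2.03 in tumours. Col6a1 to Col6a3, partners in type VI, was at 2.12 and 1.86, then 1.48 and 1.39, 1.36 and 1.68, and 1.25 and 1.20 in the same order. These ratios were not tested.

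The 6 type IV genes lie in 3 head-to-head pairs, in which both genes start close together and run in opposite directions (positions are GENCODE M21 on GRCm38). Col4a1 (chr8:11198423-11312826, minus strand) and Col4a2 (chr8:11312805-11449287, plus strand) overlap by 22 bp, Col4a4 and Col4a3 are 71 bp apart, and Col4a6 (chrX:141165403-141474076, minus strand) and Col4a5 (chrX:141475385-141689234, plus strand) are 1308 bp apart. The first and the last pair moved in opposite directions in the tumours, so the promoter windows of these 4 genes are shown, each 300 bases from 250 before to 50 after the RefSeq start on GRCm38.p6. The windows are Col4a1 chr8:11312777-11313076 (minus strand), Col4a2 chr8:11312555-11312854 (plus strand), Col4a6 chrX:141474027-141474326 (minus strand) and Col4a5 chrX:141475169-141475468 (plus strand). They run 5′ to 3′ on the gene's strand, and capitals mark a CCAAT box (CCAAT) or a GC box (GGGCGG) on either strand.
Col4a1: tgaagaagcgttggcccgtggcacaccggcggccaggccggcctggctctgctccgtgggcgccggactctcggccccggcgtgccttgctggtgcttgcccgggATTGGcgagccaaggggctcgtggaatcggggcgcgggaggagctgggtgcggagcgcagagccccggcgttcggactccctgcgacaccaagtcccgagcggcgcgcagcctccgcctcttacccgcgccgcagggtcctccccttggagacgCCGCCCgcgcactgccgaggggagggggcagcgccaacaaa
Col4a2: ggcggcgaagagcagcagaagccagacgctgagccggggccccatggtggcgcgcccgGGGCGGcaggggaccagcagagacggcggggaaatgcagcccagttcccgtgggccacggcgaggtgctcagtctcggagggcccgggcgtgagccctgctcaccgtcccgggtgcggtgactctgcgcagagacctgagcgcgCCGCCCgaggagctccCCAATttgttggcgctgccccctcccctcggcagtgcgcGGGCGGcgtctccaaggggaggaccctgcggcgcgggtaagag
Col4a6: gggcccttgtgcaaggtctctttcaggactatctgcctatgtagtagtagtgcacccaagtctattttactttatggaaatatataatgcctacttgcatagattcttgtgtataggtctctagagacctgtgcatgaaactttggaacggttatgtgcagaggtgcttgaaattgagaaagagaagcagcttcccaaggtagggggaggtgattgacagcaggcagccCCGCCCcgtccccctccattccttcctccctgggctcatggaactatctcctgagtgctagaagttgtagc
Col4a5: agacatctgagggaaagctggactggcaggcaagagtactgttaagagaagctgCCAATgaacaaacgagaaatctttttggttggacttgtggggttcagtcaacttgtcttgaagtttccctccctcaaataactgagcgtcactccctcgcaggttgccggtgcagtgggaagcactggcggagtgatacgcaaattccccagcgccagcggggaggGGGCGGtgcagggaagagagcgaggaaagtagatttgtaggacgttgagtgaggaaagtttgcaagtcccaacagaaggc
The Col4a1 and Col4a2 windows share 78 bases, read from opposite strands. All 4 windows hold a GC box letter match, and Col4a1, Col4a2 and Col4a5 also hold CCAAT. Of the 44 genes 35 matched the RefSeq promoter table, with 38 windows. A GC box was in 60.5% of these windows and in 35.7% of all 32851 windows of the same length, CCAAT in 34.2% and 37.4%, a TATA box (TATAAA) in 13.2% and 13.6%, and an AP-1 motif (TGANTCA) in 2.63% and 7.81%, counting both strands. The median GC content was 59.8% in the collagen windows and 52.7% in all windows. A letter match is not a binding site, and no measurement in these tables was made at the promoters.

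In untreated colon no collagen gene differed between KO and WT by edgeR's quasi-likelihood test at an adjusted p of 0.05, over 18102 genes tested of which 0.011% were called. 38 of the 44 chains passed the filter on low counts in colon, and 6 did not. An unadjusted p under 0.05 was reached by 3 of the 38 (background 6.53%), and DESeq2 called 0 (background 0.326%). The chains nonetheless sat mostly on the KO-low side: 33 of the 38 had a log2 fold change under 0, with a median of -0.38, against 51% and a median of -0.01 over all genes tested. In 11 chains all 3 KO libraries were under all 3 WT libraries (background 8.83%), and in 2 they were all above (background 9.06%). Col14a1, a FACIT chain, was at 25.2, 31.3 and 19.9 CPM in WT and at 9.71, 13.5 and 5.09 CPM in KO, which do not overlap (log2 fold change -1.46 ± 0.46 SE, adjusted p = 0.611). Col8a2, a short chain of network collagen, stood at -1.41 ± 0.47 (adjusted p = 0.624), and Col9a3 at 1.19 ± 0.43 (adjusted p = 0.719).

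At day 7 again 0 of 38 chains were called between KO and WT (background 0.00552%, edgeR). 25 had an unadjusted p under 0.05 (background 27%), and DESeq2 called 18 lower in KO (background of lower calls 8.71%). The log2 fold change was under 0 in 37 of 38 chains (background 45.3%), with a median of -1.25 against 0.05 over all genes. In 21 chains the KO libraries lay under the WT libraries without overlap (background 13.9%). This size rests in large part on WT day 7 replicate 2: without it the median was -0.49. That library held the most smooth muscle RNA, and also the highest summed fibroblast, pericyte, endothelial and leukocyte markers of its group. Summed fibroblast markers were at 1790 CPM there and at 530 and 559 CPM in the other WT day 7 libraries. The part of these markers in the difference was not tested. The smallest p-values belonged to Col6a3 (-1.36 ± 0.33), Col6a5 (-1.71 ± 0.43) and Col18a1 (-2.002 ± 0.51), each with an adjusted p of 0.0647. Without WT day 7 replicate 1 edgeR called 9 chains and without replicate 3 it called 18, all lower in KO, when 3.40% and 8.82% of all genes were called lower.

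At day 13 6 chains were lower in KO and 0 higher, 15.8% of the 38 tested against 2.51% of all genes in either direction and 1.86% in the lower one. 4 of them were fibrillar chains, of 10 tested, and they build the fibrils of types I and V. Col1a1 was at 178, 139 and 412 CPM in WT and at 47.5, 76.9 and 75.6 CPM in KO, a 3.63-fold lower level (log2 fold change -1.86 ± 0.39 SE, adjusted p = 0.0229). The lowest WT library was well above the highest KO library. Col1a2 was at 222, 194 and 506 CPM in WT and at 82.1, 114 and 120 CPM in KO (-1.54 ± 0.38, adjusted p = 0.0442). Col5a2, a chain of the type V collagen found inside type I fibrils, was at 79.4, 58.0 and 134 CPM in WT and at 18.3, 32.5 and 28.7 CPM in KO (-1.76 ± 0.41, adjusted p = 0.0364). Its partner Col5a1 was at 87.2, 62.9 and 150 CPM and at 21.9, 37.0 and 37.3 CPM (-1.63 ± 0.40, adjusted p = 0.0434). None of these chains overlapped between genotypes, and in each of them WT day 13 replicate 3, the squamous-rich library, was the highest.

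The other 2 chains called at day 13 were Col6a3, the long chain of type VI, and Col18a1, the multiplexin whose end fragment is endostatin. Col6a3 was at 108, 65.9 and 126 CPM in WT and at 34.2, 37.9 and 35.6 CPM in KO (-1.47 ± 0.34, adjusted p = 0.0336). Col18a1 was at 67.6, 28.6 and 117 CPM in WT and at 12.1, 18.2 and 14.5 CPM in KO, a 4.74-fold lower level (-2.25 ± 0.52, adjusted p = 0.0348). The KO libraries were close together in both, while the WT libraries spread widely. Col3a1 was at 584, 422 and 1022 CPM in WT and at 123, 281 and 222 CPM in KO, without overlap, and just missed the threshold (-1.69 ± 0.44, adjusted p = 0.0580), as did Col12a1, a FACIT chain (-1.37 ± 0.37, adjusted p = 0.0627). Neither main type IV chain passed: Col4a1 was at 199, 118 and 291 CPM in WT and at 84.6, 101 and 98.9 CPM in KO.

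The day 13 calls depended on single libraries. 0 chains were called without WT replicate 1, without WT replicate 3 or without any one of the 3 KO replicates, and 9 without WT replicate 2, all lower in KO, when 5.52% of all genes were called lower. Without the squamous-rich WT replicate 3 the median log2 fold change of the 38 chains went from -0.93 to -0.49 (the median of all genes was -0.02), and that of Col1a1 went to -1.23 (adjusted p = 0.107). 20 chains had an unadjusted p under 0.05 (background 18.2%), 18 had KO libraries under the WT libraries without overlap (background 12.3%) and 3 above (background 11.5%), and DESeq2 called 10 lower (background 5.18%). With Xist as a covariate 0 chains were called, and with a smooth muscle covariate 16, all lower in KO, when 6.73% of all genes were called lower.

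**Figure D3:**
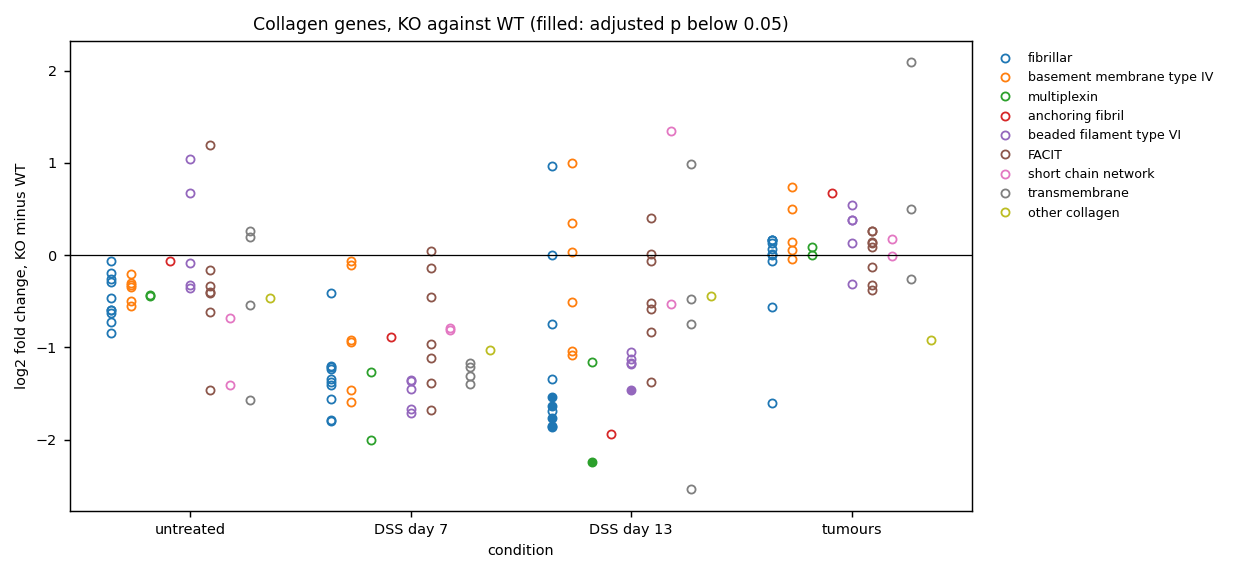
Log2 fold change of each tested collagen gene, KO minus WT, by class (colours) in the 4 conditions (38 genes in colon, 37 in tumours); filled points had an edgeR adjusted p under 0.05. Most points sit under 0 in untreated, day 7 and day 13 colon (33, 37 and 29 of 38), with medians of -0.38, -1.25 and -0.93, and around 0 in tumours, with a median of 0.13; the 6 filled points are all at day 13.

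Averaged over the 3 colon conditions, 13 of 38 chains were lower in KO and 0 higher, 34.2% against 4.84% of all genes in either direction and 3.88% in the lower one. These were 6 of 10 fibrillar chains, 3 of 5 type VI chains, 2 of 6 type IV chains, 1 of 2 multiplexins and 1 of 7 FACIT chains. The fibrillar chains were Col1a1 (2.32-fold lower, log2 fold change -1.22 ± 0.22, adjusted p = 0.0130), Col1a2 (-1.13 ± 0.22, adjusted p = 0.0141), Col5a1 (-1.20 ± 0.23, adjusted p = 0.0138), Col5a2 (-1.21 ± 0.23, adjusted p = 0.0149), Col3a1 (2.31-fold lower, -1.21 ± 0.25, adjusted p = 0.0205) and Col5a3. The type VI chains were Col6a1 (-0.95), Col6a2 (-0.95) and Col6a3 (-0.97 ± 0.19, adjusted p = 0.0159), which together form the usual type VI molecule. Both main type IV chains were lower, Col4a1 at -0.95 and Col4a2 at -0.98 on the log2 scale (adjusted p = 0.0400 and 0.0417), while the minor chains Col4a3, Col4a4, Col4a5 and Col4a6 did not pass. Col18a1 had the largest change among the 13 (2.95-fold lower, -1.56 ± 0.29, adjusted p = 0.0135), and Col12a1 was the FACIT chain (-1.03 ± 0.21, adjusted p = 0.0181). Over all 38 chains the median was -0.80 against 0.02 for all genes, and 36 were under 0 (background 46%). 24 chains had an unadjusted p under 0.05 (background 25.5%) and DESeq2 called 18 lower (background of lower calls 9.17%).

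The untreated and day 7 libraries showed the same order in the main fibrillar chains. Col1a1 was at 136, 176 and 111 CPM in untreated WT and 83.6, 98.8 and 104 CPM in untreated KO, and at 222, 380 and 147 CPM against 105, 126 and 86.1 CPM at day 7. Col3a1 was at 495, 588 and 369 CPM in untreated WT and 261, 340 and 293 CPM in untreated KO, and at 419, 1231 and 391 CPM against 220, 380 and 253 CPM at day 7. In both genes and both conditions every KO library lay under every WT library. Between 7 and 19 chains were called when each of the 18 libraries was left out in turn, all lower in KO, when 0.982% to 8.83% of all genes were called lower. 7 were called without KO day 7 replicate 1, and 8 without untreated WT replicate 1 or 2, untreated KO replicate 1, KO day 7 replicate 3, WT day 13 replicate 3, or KO day 13 replicate 1 or 3. Without both squamous-rich libraries 2 were called, without all 4 libraries that stood apart 10, with Xist as a covariate 8 and with a smooth muscle covariate 6. The share of all genes called also moves between fits and is not given for these settings. These counts alone therefore do not show how far the chains in particular depended on those libraries or covariates.

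Some genes that modify or bind collagen were also lower in KO in this average, in which 3.88% of all genes were lower. Of 20 tested genes for folding and modification of collagen in the endoplasmic reticulum 4 were lower and 0 higher: Serpinh1, the collagen chaperone HSP47 (-0.92 ± 0.18, adjusted p = 0.0160), Fkbp10 (-0.997 ± 0.24), and the prolyl 3-hydroxylases P3h1 (-0.95 ± 0.24) and P3h3 (-1.004 ± 0.26). Of 13 genes for processing and crosslinking 7 were lower and 0 higher, among them the lysyl oxidases that link collagen molecules, Loxl2 (-1.29 ± 0.21, adjusted p = 0.0106), Loxl4 (-1.39 ± 0.25, adjusted p = 0.0120) and Lox (-1.35 ± 0.29, adjusted p = 0.0222), and the collagen-binding protein Sparc (-1.01 ± 0.19, adjusted p = 0.0134). Among proteins that bind fibrils 4 of 11 tested were lower: the small proteoglycans Bgn (-1.05 ± 0.22) and Dcn (-1.18 ± 0.32), tenascin C, Tnc (-0.97 ± 0.23), and fibronectin, Fn1 (-1.09 ± 0.27). Dcn is also one of the fibroblast markers counted here. Of 15 basement membrane partners of type IV 6 were lower, among them nidogen Nid1 (-0.91 ± 0.19) and the laminin chains Lama1 (-1.50 ± 0.32), Lamc1 (-0.999 ± 0.22) and Lamb1 (-0.95 ± 0.22). Of 10 collagen receptors 2 were lower, the inhibitory leukocyte receptor Lair1 (-1.21 ± 0.21) and the uptake receptor Mrc2 (-1.18 ± 0.26). At day 13 alone 3 of 13 crosslinking, 1 of 15 basement membrane and 1 of 10 receptor genes were lower, when 1.86% of all genes were lower. None of these lists had a higher gene, and the basement membrane and receptor counts are single genes. Lox was at -2.64 (adjusted p = 0.0195), Lama1 at -2.45 (adjusted p = 0.0338) and Lair1 at -1.90 (adjusted p = 0.0171). Fewer partner genes were called without both squamous-rich libraries. The average then held 0 called folding, 2 crosslinking, 0 fibril-binding, 0 basement membrane and 1 receptor genes, all lower, and day 13 held none. The share of all genes called in those fits is not given here, so the fall is not particular to these lists as shown.

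Some fibroblast markers were called lower in KO in this average, and no smooth muscle marker was called. In the colon average 5 of 12 fibroblast markers, 2 of 6 pericyte markers, 1 of 8 endothelial markers, 2 of 11 markers of enteric neurons and glia, 2 of 6 leukocyte markers, 0 of 10 smooth muscle markers and 0 of 8 epithelial markers were lower in KO, and none of these was higher. Of all genes 3.88% were lower. All 12 fibroblast and all 10 smooth muscle markers had a log2 fold change under 0, with medians of -0.84 and -0.35. The summed fibroblast markers were at 556 to 917 CPM in untreated WT and 360 to 582 CPM in untreated KO, 530 to 1790 CPM and 322 to 544 CPM at day 7, and 525 to 1087 CPM and 320 to 444 CPM at day 13. Summed smooth muscle markers were at 5939 to 8859 CPM in untreated WT and 3715 to 4367 CPM in untreated KO, 3994 to 13017 CPM and 4209 to 5014 CPM at day 7, and 2238 to 4058 CPM and 3733 to 6336 CPM at day 13. The fibroblast sums were lower in KO without overlap only at day 13, and overlapped between genotypes in untreated colon and at day 7. The smooth muscle sums were lower in KO without overlap in untreated colon and overlapped at day 7. They were not lower in KO at day 13, where the median log2 fold change of the smooth muscle markers was 0.63. At day 13 summed leukocyte markers were at 47.3 to 246 CPM in WT and 20.7 to 38.1 CPM in KO, pericyte markers at 101 to 272 CPM and 95.2 to 105 CPM, endothelial markers at 73.0 to 214 CPM and 53.1 to 81.3 CPM, and squamous markers at 14.97 to 5319 CPM and 3.01 to 1245 CPM. No marker of the smooth muscle, fibroblast, pericyte, endothelial, epithelial or leukocyte lists was at 0 in a whole colon group, and the part of these markers in the collagen differences was not tested.

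The response to DSS was looked at within each genotype. At day 7 in WT 6 of 38 chains changed against untreated WT, 4 higher and 2 lower, 15.8% against 16.3% of all genes in either direction (8.5% higher, 7.77% lower), so the share was near the background. The 4 that rose were 2 of 6 type IV chains, 1 of 2 multiplexins and 1 of 5 type VI chains. Of the 6 type IV chains 3 had a log2 fold change under 0, and their median was -0.07. Col4a1 went from 123, 128 and 128 CPM to 196, 798 and 207 CPM (log2 fold change 1.60 ± 0.43, adjusted p = 0.0212), and Col4a2 from 98.9, 112 and 94.2 CPM to 136, 596 and 143 CPM (1.46 ± 0.45, adjusted p = 0.0388). All day 7 libraries were above all untreated ones for both, and replicate 2 was far above the other day 7 libraries. Col18a1 went from 29.9, 30.7 and 23.2 CPM to 59.7, 212 and 42.9 CPM (1.84 ± 0.51, adjusted p = 0.0243). Col6a3 went from 63.8, 69.4 and 60.7 CPM to 123, 335 and 110 CPM (1.49 ± 0.33, adjusted p = 0.0092).

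The 2 chains that fell at day 7 in WT were Col14a1 and Col8a2. Col14a1 went from 25.2, 31.3 and 19.9 CPM to 3.59, 7.42 and 5.43 CPM, a 4.85-fold lower level without overlap (-2.28 ± 0.48, adjusted p = 0.0063). Col8a2 went from 4.29, 4.31 and 3.11 CPM to 0.852, 2.24 and 1.36 CPM (-1.47 ± 0.48, adjusted p = 0.0477). The median of the 38 chains was 0.76 against 0.03 for all genes, and without WT day 7 replicate 2 it was 0.06. Without that library 3 chains were called, 1 higher and 2 lower, with Col4a1 at 0.62 (adjusted p = 0.116), Col18a1 at 0.83 (adjusted p = 0.167) and Col4a2 at 0.41 (adjusted p = 0.327). The share of all genes called in that fit is not given here, so the count is not read on its own. 2 chains were called without any one of the untreated WT replicates, and 11 without WT day 7 replicate 3 (9 higher and 2 lower), when 14.1% of all genes were called. 15 chains had an unadjusted p under 0.05 (background 32.7%), and DESeq2 called 10 (background 21.2%). Of the partner lists, the laminin chain Lama1 (2.86 ± 0.57, adjusted p = 0.00521), tenascin C (1.94 ± 0.40, adjusted p = 0.00605) and Lox (1.80 ± 0.51, adjusted p = 0.0263) rose and Pcolce2, an enhancer of procollagen cleavage, fell by 3.80 (adjusted p = 0.0047). Among cell markers 2 of 12 fibroblast, 2 of 6 pericyte, 2 of 11 neuron and glia, 2 of 6 leukocyte, 1 of 6 squamous and 1 of 4 mesothelial markers were higher at day 7 in WT, none of these was lower, and 0 of 10 smooth muscle markers were called. Summed pericyte markers were at 150 to 176 CPM in untreated WT and 153 to 591 CPM at day 7, and neuron and glia markers at 40.1 to 76.3 CPM and 69.7 to 239 CPM, with the highest value in replicate 2 for each. Leukocyte markers were at 22.1 to 33.7 CPM and 49.1 to 202 CPM, squamous markers at 2.04 to 2.80 CPM and 24.4 to 29.1 CPM, and mesothelial markers at 0.158 to 4.05 CPM and 4.98 to 25.9 CPM, each without overlap. The part of these markers in the change was not tested.

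In KO at day 7 0 of 38 chains were called against untreated KO (background 12.6%, edgeR). 6 had an unadjusted p under 0.05 (background 26.8%), DESeq2 called 2 (background 17%), and the median was -0.15 against -0.04 for all genes. The smallest p-values were those of Col6a4 (-1.40 ± 0.51, adjusted p = 0.0860), Col4a6 (-0.97 ± 0.36, adjusted p = 0.0959) and Col4a3 (-1.06 ± 0.40, adjusted p = 0.1004). Col4a1 was at 98.1, 107 and 108 CPM in untreated KO and 157, 149 and 116 CPM at day 7, above without overlap but short of the threshold. The difference between the responses of KO and WT at day 7 was itself tested: 0 of 38 chains passed (background 0%), 7 had an unadjusted p under 0.05 (background 13.7%), and DESeq2 called 2 (background 1.96%). Col6a5, a minor type VI chain, had the smallest p (-2.38 ± 0.60, adjusted p = 0.191). By edgeR the responses of KO and WT are therefore not shown to differ for any single chain.

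At day 13 in WT 1 of 38 chains was called against untreated WT (background 4.24%). Col8a2 went from 4.29, 4.31 and 3.11 CPM to 0.179, 0.669 and 0.628 CPM, without overlap (-2.99 ± 0.51, adjusted p = 0.0089). Over the same step 3 of 10 smooth muscle markers were lower, with sums of 5939 to 8859 CPM in untreated WT and 2238 to 4058 CPM at day 13, and 2 of 6 leukocyte markers were higher, at 22.1 to 33.7 CPM and 47.3 to 246 CPM. With the smooth muscle level as a covariate Col8a2 was at -2.09 and missed the threshold (adjusted p = 0.0506), while 9 other chains were called higher (4.53% of all genes in that fit), and the part of the leukocyte markers was not tested. Col14a1 was next (-1.53 ± 0.46, adjusted p = 0.0709), then Col17a1 (5.91 ± 1.89, adjusted p = 0.0852). Col17a1, the transmembrane collagen of hemidesmosomes in stratified epithelium, was at 0.673, 1.003 and 118 CPM in WT at day 13 and at 19.6, 0.636 and 0.548 CPM in KO, so its level there rested on the libraries with squamous keratins, one in each genotype. Without them its day 13 change was 0.33 in WT (adjusted p = 0.871) and 1.42 in KO (adjusted p = 0.995). Col7a1, the anchoring fibril chain of stratified epithelium, was highest in the same libraries, at 4.31, 2.93 and 36.7 CPM in WT and 6.98, 1.86 and 2.62 CPM in KO. 8 chains had an unadjusted p under 0.05 (background 22.4%), and DESeq2 called 3 (background 9.85%). Without WT day 13 replicate 2 5 chains were called (background 8.73% in that fit), and without untreated WT replicate 1 none was.

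In KO at day 13 0 of 38 chains were called (background 0.0276%), 3 had an unadjusted p under 0.05 (background 7.62%), and DESeq2 called 0 (background 0.657%). 29 of the 38 were under 0 (background 51.9%), with a median of -0.33 against -0.01 for all genes. The smallest p-values were those of Col9a3 (-1.34 ± 0.43, adjusted p = 0.477), Col17a1 (4.94 ± 1.95, adjusted p = 0.547) and Col6a3 (-0.78 ± 0.33, adjusted p = 0.592). Col6a3 was at 52.3, 62.9 and 70.6 CPM in untreated KO and 34.2, 37.9 and 35.6 CPM at day 13, lower without overlap. The difference of the day 13 responses passed for 0 chains (background 0.011%), with 9 at an unadjusted p under 0.05 (background 13.5%) and 1 called by DESeq2 (background 2.99%), and Col8a2 had the smallest p (2.75 ± 0.69, adjusted p = 0.115). Xist was above 100 CPM in 0 untreated and 3 day 13 KO libraries. Sex and day therefore cannot be told apart in the KO change, which also enters this difference.

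**Figure D4:**
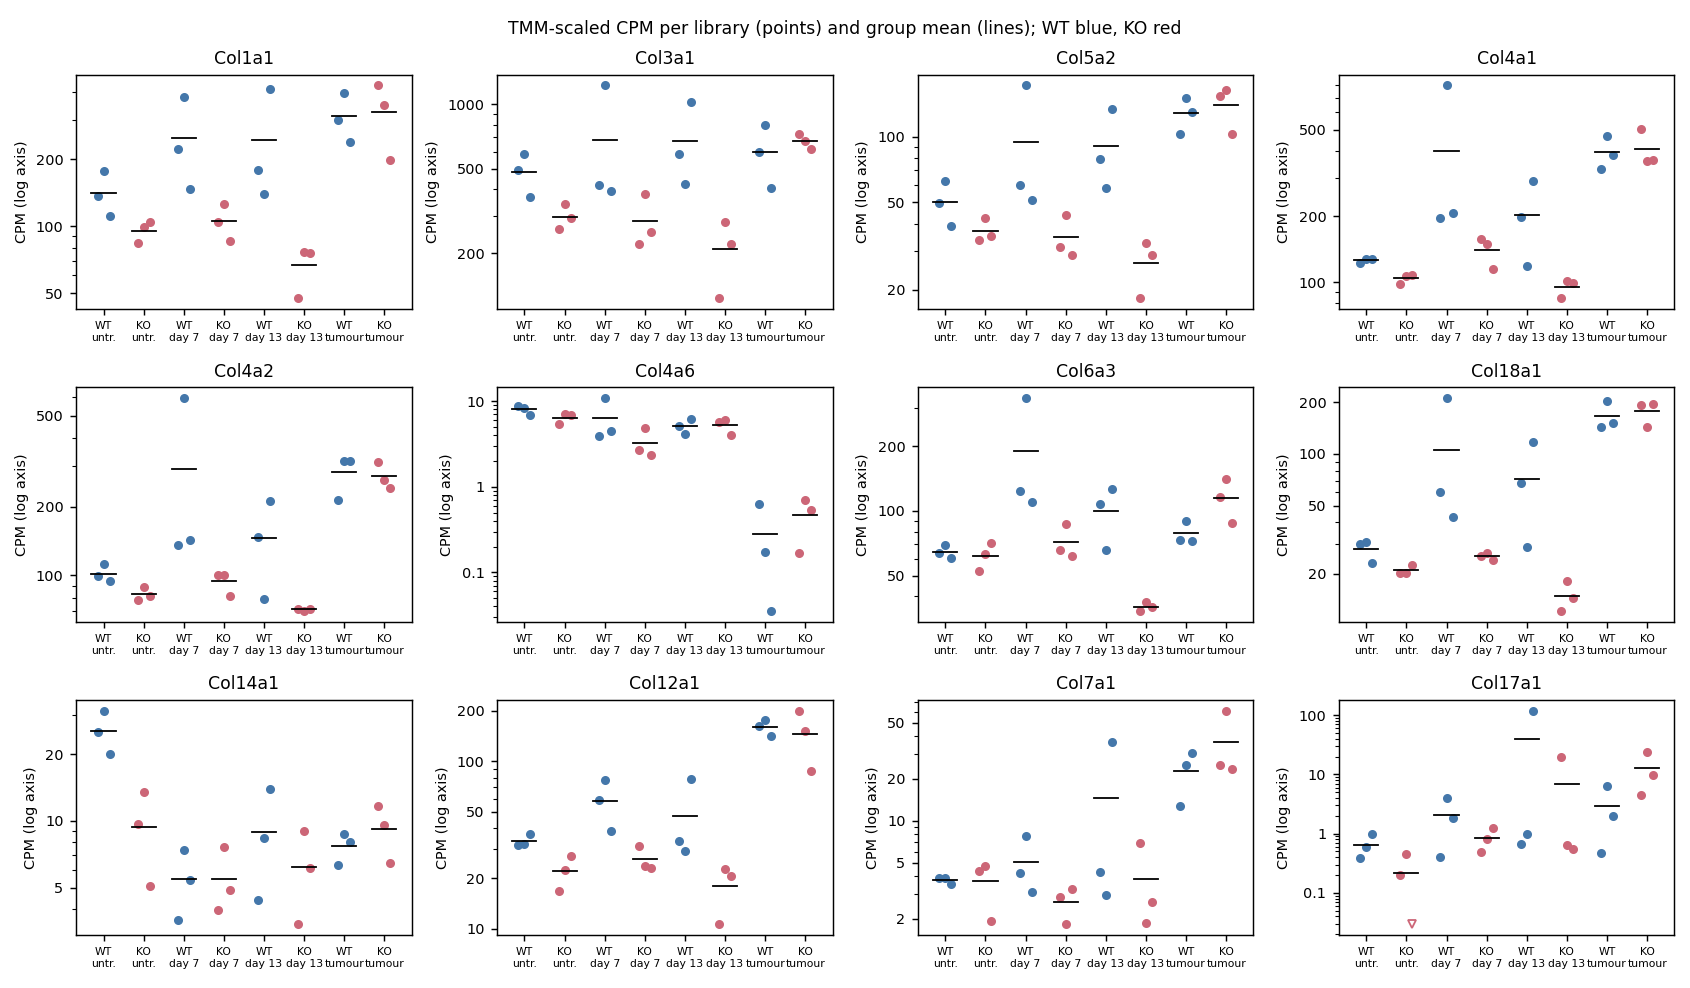
CPM (log axis) of 12 collagen genes in each library (points; lines are group means; WT blue, KO red; the open triangle stands for 1 KO untreated library with 0 counts of Col17a1). Col1a1 at day 13 is at 139 to 412 CPM in WT and 47.5 to 76.9 CPM in KO, Col4a6 is under 1 CPM in all 6 tumour libraries, and Col7a1 and Col17a1 are high in single day 13 libraries.

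Tumours differed from untreated colon in many collagens, in a setting where 48.8% of all genes in WT and 49.9% in KO were called. Of the 41 chains tested in the fit of all 24 libraries, 18 were higher and 7 lower in WT tumours (background 27.6% higher, 21.2% lower) and 21 were higher and 4 lower in KO tumours (background 26.4% higher, 23.5% lower). That is 61.0% of the tested chains in each genotype. These counts include Col2a1, Col9a1 and Col10a1, which were called higher in both genotypes. They were too low to be tested in the colon fit and passed the filter here only through the tumours, where they were high. Their calls therefore add no support to these counts. With the mean log2 CPM of the 10 smooth muscle markers as a covariate 6 chains were called in WT, all higher (1.98% of all genes were called higher), and 18 in KO, all higher (6.53% of all genes). The median of the chains was 0.85 in WT and 1.02 in KO against 0.09 and 0.04 for all genes. The WT and KO comparisons share no library, and they use separate untreated groups.

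Fibrillar chains rose in part. Col1a1 went from 136, 176 and 111 CPM to 300, 396 and 239 CPM in WT (log2 fold change 1.14 ± 0.39, adjusted p = 0.0198) and from 83.6, 98.8 and 104 CPM to 429, 348 and 199 CPM in KO (1.77 ± 0.39, adjusted p = 0.0012). The tumour libraries were above the untreated ones in both genotypes. Col5a2 went from 49.7, 62.4 and 39.0 CPM to 102, 150 and 130 CPM in WT (1.34) and from 33.7, 42.5 and 35.0 CPM to 153, 164 and 103 CPM in KO (1.92). Col3a1 and Col1a2 rose in KO tumours (1.18, adjusted p = 0.0246, and 1.05, adjusted p = 0.0267) and were at 0.31 and 0.45 in WT without passing; that difference between genotypes was not tested. In WT tumours 5 of 11 fibrillar chains were higher (background 27.6%) and in KO tumours 7 of 11 (background 26.4%). None was lower in either. Both counts include Col2a1, which passed the filter only through the tumours. Col2a1, the chain of type II collagen of cartilage, had 18, 12 and 19 counts in WT tumours and 0 in each untreated WT library, which makes it at least 14.03-fold higher against a floor of 3 counts over the group. In KO it had 16 counts in tumours and 1 in untreated colon (14.96-fold, 95% counting interval 2.32 to 627).

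The type IV pairs Col4a1 with Col4a2 and Col4a5 with Col4a6 moved in opposite directions. Col4a1 went from 123, 128 and 128 CPM to 331, 468 and 384 CPM in WT (3.12-fold, log2 fold change 1.64 ± 0.40, adjusted p = 0.0023) and from 98.1, 107 and 108 CPM to 503, 361 and 363 CPM in KO (3.91-fold, 1.97 ± 0.40, adjusted p = 0.0006). Col4a2 rose by 1.47 ± 0.41 in WT (adjusted p = 0.0067) and by 1.72 ± 0.42 in KO (adjusted p = 0.0024). Col4a6 instead went from 8.84, 8.34 and 6.85 CPM to 0.624, 0.175 and 0.0354 CPM in WT, 28.8-fold lower (-4.85 ± 0.64, adjusted p = 9.12e-06). In KO it went from 5.38, 7.11 and 6.81 CPM to 0.169, 0.696 and 0.533 CPM, 13.8-fold lower (-3.79 ± 0.60, adjusted p = 6.04e-05). Its neighbour Col4a5 went from 14.9, 12.1 and 13.6 CPM to 4.02, 1.05 and 0.814 CPM in WT (-2.79 ± 0.51, adjusted p = 0.0002) and from 6.83, 11.2 and 10.2 CPM to 2.40, 2.63 and 3.31 CPM in KO (-1.76 ± 0.49, adjusted p = 0.0063). Both of these pairs were clear of overlap in both genotypes. Of the 6 type IV chains 2 were higher and 3 lower in WT tumours (background 27.6% higher, 21.2% lower). In KO tumours 2 were higher and 2 lower (background 26.4% higher, 23.5% lower). The remaining lower call in WT fell in the pair of Col4a3 and Col4a4, which was near 0. Their means were 0.20 and 0.07 TPM in untreated WT colon and 0.083 and 0.053 TPM in WT tumours. Per length, Col4a5 and Col4a6 together made up 8.22% and 7.76% of type IV TPM in untreated WT and KO colon and 0.414% and 0.494% in the tumours. As background, chains of Col4a5 and Col4a6 form a molecule known from the basement membrane around smooth muscle cells.

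The tumour libraries held little smooth muscle RNA, and this moved with the loss of Col4a5 and Col4a6. All 10 smooth muscle markers were lower in tumours of both genotypes, with sums of 153 to 263 CPM in WT and 196 to 317 CPM in KO against 5939 to 8859 CPM and 3715 to 4367 CPM in untreated colon. 8 of 11 neuron and glia markers were lower in both, and these did not enter the smooth muscle covariate. The background of lower calls was 21.2% in WT and 23.5% in KO. With the mean log2 CPM of these markers as a covariate the log2 fold change of Col4a6 was 0.27 in WT and 0.26 in KO, and that of Col4a5 was 1.58 and 1.81, none of them called. Col4a1 and Col4a2 stayed called in both genotypes under this covariate. Smooth muscle content and tumour are bound together in the groups, so they cannot be told apart.

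Multiplexin and anchoring chains rose. Col18a1 went from 29.9, 30.7 and 23.2 CPM to 144, 204 and 152 CPM in WT (5.98-fold, 2.58 ± 0.48) and from 20.1, 20.2 and 22.6 CPM to 193, 144 and 195 CPM in KO (8.46-fold, 3.08 ± 0.49). Col15a1, the other multiplexin, did not pass in either genotype. Col7a1 went from 3.90, 3.91 and 3.56 CPM to 12.8, 24.9 and 30.7 CPM in WT (2.59 ± 0.76, adjusted p = 0.0085) and from 4.37, 4.75 and 1.92 CPM to 25.1, 60.8 and 23.3 CPM in KO (3.30 ± 0.78, adjusted p = 0.0018). Col17a1 passed in KO tumours, at 4.43, 23.8 and 9.79 CPM against 0.202, 0.449 and 0 CPM (5.81 ± 1.91, adjusted p = 0.0170), and not in WT. The summed squamous markers were high in the same tissue, at 88.3 to 683 CPM in KO tumours and 63.9 to 104 CPM in WT tumours. In untreated KO and WT colon the sums were 2.02 to 20.3 CPM and 2.04 to 2.80 CPM. Of 8 tested 6 rose in KO tumours, 75% against 26.4% of all genes. In WT tumours 2 of 8 rose, 25% against 27.6% of all genes, so the WT count was near the background. In the colon fit only 6 of the 9 squamous markers passed the filter. The 8 thus include markers let in by the tumour libraries, whose calls add no support. DESeq2 called 3 higher in KO and 4 in WT (its share of all genes is not given here). In each genotype 6 had tumour libraries above the untreated ones without overlap. These counts therefore do not set the genotypes apart. The part of the squamous markers in the rise of Col7a1 and Col17a1 was not tested. Col17a1 was highest in KO tumour replicate 2, the tumour library with Krt5 at 207 CPM.

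FACIT chains held several of the largest rises. The 3 chains of type IX collagen, which coats type II fibrils in cartilage, all rose in both genotypes. Col9a3 went from 0.303, 0.316 and 0.356 CPM to 35.1, 23.2 and 16.9 CPM in WT (75.9-fold, 6.25 ± 0.52, adjusted p = 1.7e-07) and from 0.566, 0.561 and 1.16 CPM to 10.6, 13.3 and 34.3 CPM in KO (25.3-fold, 4.66 ± 0.48, adjusted p = 1.07e-06). Col9a2 went from 1.26, 2.02 and 1.64 CPM to 7.648, 19.8 and 18.1 CPM in WT (3.21 ± 0.54) and from 2.14, 1.65 and 0.681 CPM to 9.77, 18.3 and 20.4 CPM in KO (3.43 ± 0.55). Col9a1 was low throughout and passed the filter only through the tumours. It had 144 counts in WT tumours against 3 in untreated WT (41.2-fold, 95% counting interval 13.8 to 202). The untreated and tumour libraries were apart for all 3 genes. Col12a1, the abundant FACIT chain on type I fibrils, went from 31.6, 32.1 and 36.7 CPM to 163, 175 and 143 CPM in WT (4.80-fold, 2.26 ± 0.38) and from 16.9, 22.6 and 27.4 CPM to 200, 151 and 87.0 CPM in KO (6.55-fold, 2.71 ± 0.38). Other chains of the class went the opposite way: Col14a1 fell by 1.72 on the log2 scale in WT tumours (adjusted p = 0.0030) and Col20a1 fell by 1.40 in WT and 1.41 in KO. With the smooth muscle covariate Col14a1 in WT was at 0.32 and not called. In KO it was at 9.71, 13.5 and 5.09 CPM in untreated colon and 11.6, 9.59 and 6.47 CPM in tumours, which overlap and were not called.

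Of 5 tested type VI chains 2 were higher and 0 lower in tumours of each genotype. Of 3 short chains 1 was higher and 2 lower in WT and 1 higher and 1 lower in KO. The background was 27.6% higher and 21.2% lower in WT, and 26.4% and 23.5% in KO. The higher short chain was Col10a1, which passed the filter only through the tumours. In KO its libraries overlapped, at 0, 0.0748 and 0.160 CPM in untreated colon and 0.304, 0.735 and 0.152 CPM in tumours. DESeq2 called 0 short chains higher in KO tumours. Col6a4, a minor type VI chain, went from 6.46, 3.36 and 9.38 CPM to 24.9, 34.0 and 24.8 CPM in WT, without overlap (2.13 ± 0.48, adjusted p = 0.0013), and rose by 1.18 in KO (adjusted p = 0.0418). Both Col6a4 calls were lost with the smooth muscle covariate (1.006 and 0.28). In KO an untreated library overlapped the tumours, and the call was also lost without untreated replicate 1 or 2 or tumour replicate 1 or 3. Col6a1 was at 132, 141 and 102 CPM in untreated WT and 72.3, 117 and 61.2 CPM in WT tumours (log2 fold change -0.58, not called), and Col6a2 was also not called in either genotype. Col6a3 passed in the KO comparison (0.89, adjusted p = 0.0258) and not in the WT one, and the difference between these changes was not tested. Col8a2 went from 4.29, 4.31 and 3.11 CPM to 0.585, 0.0699 and 0 CPM in WT (17.9-fold lower, -4.16 ± 0.88) and fell by 3.03 in KO (adjusted p = 0.0077). With the smooth muscle covariate Col8a2 was at -0.52 in WT and 0.065 in KO, neither called. Col10a1, known from growth plate cartilage, had 33 counts in WT tumours and 2 in untreated WT colon (14.2-fold, 95% counting interval 3.63 to 122). Col10a1 lies inside Nt5dc1, which is on the opposite strand and had a mean of 441 counts against 3.63 for Col10a1. The overlap is one of whole gene spans, exons were not compared, and the sources used here do not give the strand setting. Whether reads of one gene were counted for the other was not tested. The same holds for the 8825 bp that Col18a1 shares with Slc19a1. It also holds for Col20a1, which shares 741 bp with BX649560.1 on the same strand. That gene had a mean of 195.6 counts against 93.75 for Col20a1.

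**Figure D5:**
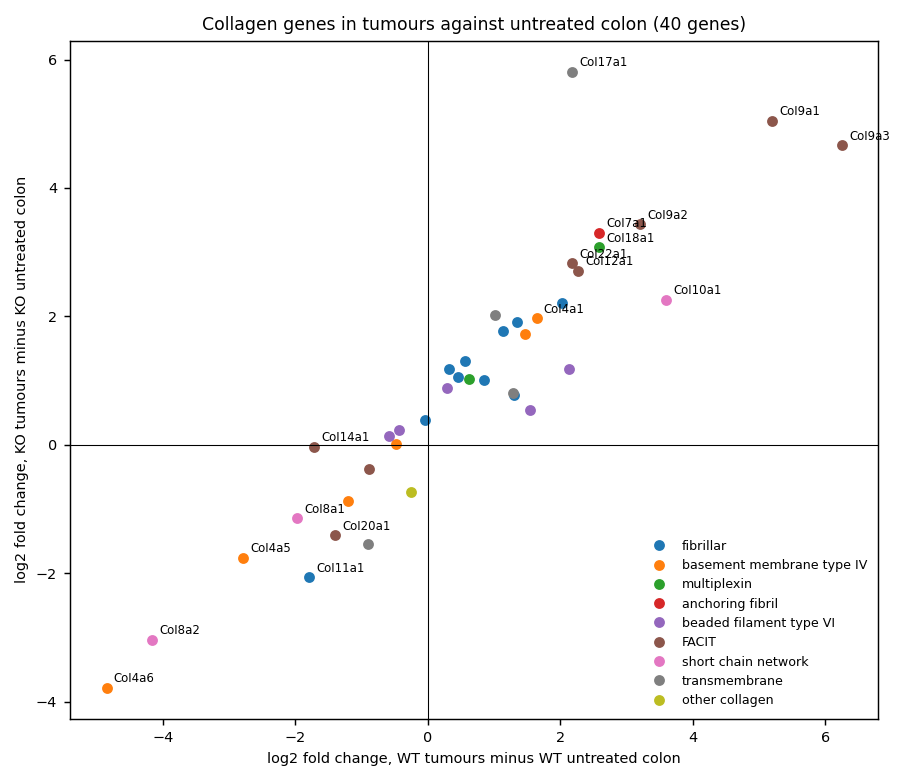
Log2 fold change in tumours against untreated colon of the same genotype, WT on the horizontal and KO on the vertical axis, for 40 collagen genes coloured by class (Col2a1, at 0 counts in untreated WT, is not drawn). Col9a1, Col9a2, Col9a3, Col12a1 and Col18a1 lie to the upper right, Col4a5, Col4a6 and Col8a2 to the lower left, and Col17a1 at 5.81 in KO lies far above the other genes of like WT value.

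Genes that process, fold or bind collagen were counted in the same comparisons, in which 27.6% of all genes were higher and 21.2% lower in WT and 26.4% and 23.5% in KO. Processing and crosslinking genes were higher in 6 of 13 cases in WT and 7 of 13 in KO, with 0 lower, led by Lox (3.44 ± 0.54 in WT, adjusted p = 4.85e-05, and 3.17 ± 0.53 in KO, adjusted p = 0.000101). Basement membrane partners were higher in 9 of 15 in WT and 10 of 15 in KO with 0 lower, led by the laminin chains Lama1 (4.69 ± 0.61 and 4.48 ± 0.60) and Lama5 (2.02 ± 0.37 and 2.75 ± 0.38). Folding and modification genes were split, with 7 higher and 3 lower of 20 in WT and 9 and 3 in KO, so that the share called in either direction lay near the background in WT. The enzymes Plod3 (1.09 ± 0.17 in WT and 0.85 ± 0.17 in KO) and Colgalt1 (1.03 ± 0.17 and 0.87 ± 0.17), which modify lysine in collagen, rose, and Creb3l1, a transcription factor of collagen genes, fell by 2.04 in WT and 2.07 in KO. Fibril-binding proteins were higher in 1 and lower in 4 of 11 in WT, and 4 and 4 in KO, with Ogn, osteoglycin, at -3.54 ± 0.52 and -2.33 ± 0.49. Of 10 collagen receptors 4 were higher and 2 lower in WT and 3 and 1 in KO. Of the fibroblast markers 3 were higher and 5 lower in WT tumours and 3 higher and 4 lower in KO tumours, of 12, and their sums were at 560 to 757 CPM and 548 to 610 CPM.

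Between KO and WT tumours no collagen gene was called: 0 of 37 tested, as 0 of 17246 genes overall (background 0%, edgeR). 2 chains had an unadjusted p under 0.05 (background 3.79%), Col2a1 (-1.60 ± 0.48) and Col6a3 (0.55 ± 0.20), each with an adjusted p of 0.942, and DESeq2 called 0 (background 0.0759%). The median was 0.13 against -0.01 for all genes, and 24 of 37 were above 0. Col1a1 was at 300, 396 and 239 CPM in WT and 429, 348 and 199 CPM in KO tumours, and Col4a1 at 331, 468 and 384 CPM against 503, 361 and 363 CPM, so that the genotypes overlapped in both. Col17a1 had the largest value in the KO direction (2.09), again with KO replicate 2 as the highest library. Of the genes for collagen folding, processing, fibril binding, basement membrane and receptors none was called in this comparison.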

How the data were processed

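RNA of 18 mouse colon and 6 tumour libraries was extracted with Trizol and sequenced on Illumina libraries, per the labels' protocols. STAR 2.7.6a, RSEM 1.3.1 and the build GRCm38 are named in the submitters' processing notes, and the sources used here give neither the annotation release nor the strand setting. The authors deposited expected counts, estimates that share a read between the genes it fits (11.0% to 12.4% of the values in a library were not whole), and TPM, per the file headers.

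Expected counts were rounded and tested with edgeR 4.0.16 (R 4.3.3) by its quasi-likelihood F test with TMM, robust estimation and filterByExpr (minimum count 10, minimum total 15), adjusted by Benjamini-Hochberg within each of 13 comparisons at 0.05. Colon comparisons used the 18 colon libraries (18102 genes), KO against WT tumours the 6 tumour libraries (17246 genes), and tumours against colon all 24 (19056 genes). Adjusted p-values of genes are from this test. The SE is the log2 fold change divided by the root of F. Replicates are numbered in accession order only. The procedure was tested on simulated data.

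Named genes were 16 core chains, up to 6 called members per direction with the smallest p (the 3 smallest where fewer than 3 were called), Axin1 and up to 4 genes per partner list. The members and lists were chosen with earlier results of these data known. Other members and marker genes named with values were picked with their values known. The alternatives tried were DESeq2 1.42.0, RLE size factors, no filter, a filter at 1 CPM, only the groups compared, a smooth muscle covariate (10 genes, log2 CPM with a prior count of 2), and each library left out; an Xist covariate and leaving out 2 or 4 libraries were added after seeing the data. Symbols were found for 55227 of 55487 identifiers.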

Additional observations from a re-analysis of the deposited data

How the results depend on the processing

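Over 127 single-gene results and their 1998 values under alternatives, 1655 kept direction and side of the threshold, 263 kept direction but lost the threshold, 66 kept direction and gained it, and 14 changed direction. The causes were not tested.

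The number of called collagen genes moved by more than 1.5 times in these cases, and the share of all genes called moved between fits as well. With DESeq2 it was 10 in WT day 7 against untreated (6 with edgeR), 2 in KO day 7 (0), 3 in WT day 13 (1), 18 in KO against WT at day 7 (0), 10 at day 13 (6), 2 in the difference of day 7 responses (0) and 1 in that of day 13 responses (0). With no filter it was 3 in WT day 7, 1 in KO against WT at day 13 and 8 in the colon average (13). With only the groups compared it was 1 in WT day 7, 1 in KO day 7, 0 in WT day 13 and 0 in KO against WT at day 13. With the Xist covariate it was 1 in WT day 7, 0 in KO against WT at day 13 and 8 in the average. With the smooth muscle covariate it was 1 in KO day 7, 9 in WT day 13, 16 in KO against WT at day 13, 6 in the average, 1 in the difference of day 13 responses and 6 in WT tumours (25). Without the 2 squamous-rich libraries it was 2 in WT day 13, 0 in KO against WT at day 13 and 2 in the average; without the 4 libraries that stood apart it was 5 in WT day 13 and 1 in KO against WT at day 13.

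Leaving out each library in turn gave 2 to 11 called genes in WT day 7, 0 to 1 in KO day 7, 0 to 5 in WT day 13, 0 to 0 in KO day 13, 0 to 0 in KO against WT untreated, 0 to 18 at day 7, 0 to 9 at day 13, 7 to 19 in the average, 0 to 0 in both differences of responses and in KO against WT tumours, 21 to 24 in WT tumours and 19 to 24 in KO tumours.

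Direction changed for Col14a1 in KO against WT at day 7 (-0.18 without WT day 7 replicate 1, -0.25 without KO day 7 replicate 2) and day 13 (0.25 without the 2 squamous-rich libraries, 0.25 without the 4 libraries), for Col17a1 at day 7 (1.91 with the smooth muscle covariate), and, without WT day 13 replicate 3, for Col7a1 (0.093) and Col17a1 (3.04) at day 13 and Col17a1 in the average (0.086). Over the libraries left out, Col7a1 at day 13 ran from -2.66 to 0.093, Col17a1 at day 13 from -6.02 to 3.04 and Col17a1 in the average from -2.91 to 0.086. With the smooth muscle covariate it changed for Col4a6 (0.27), Col4a5 (1.58) and Col14a1 (0.32) in WT tumours and Col4a6 (0.26), Col4a5 (1.81) and Col8a2 (0.065) in KO tumours.

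With CPM in place of TPM the fibrillar share was 51.8% in untreated KO, 49.1% in WT day 7 and 59.4% in WT day 13, and the type IV share was 14.6%, 16.5%, 20.7%, 20.0%, 15.2%, 20.2%, 23.3% and 21.7% in untreated WT and KO, WT and KO day 7, WT and KO day 13 and WT and KO tumours. No paired analysis was possible because the replicate numbers only follow accession order and pair no libraries.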
